A study of Mus musculus with 3 samples.

Results

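The genes described here are those of the DEAD-box and DEAH-box helicases, taken from lists of H3K4me3 peaks in MLg, an established mouse lung fibroblast line. A gene was a member if a peak within 2000 bp of a transcription start site (TSS) carried a name beginning with Ddx or Dhx and a digit in any of the 3 lists. This rule took 43 genes of the 9080 genes named by such a promoter peak, with 35 member peaks in TGFB1+miR-9-LOF, 42 in TGFB1 and 42 in Ctrl. The distances between the 119 member peaks and their TSS ran from -324 to 1140 bp. The widest of these distances belonged to Ddx5, and 0 peaks with a Ddx or Dhx name lay beyond the limit.

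The study asked what the microRNA miR-9 does in the nucleus during the response of fibroblasts to TGFB1, a cytokine that activates them. H3K4me3 was profiled by ChIP-seq in 3 groups with 1 library each. In TGFB1+miR-9-LOF, an antagomiR against miR-9-5p was transfected to cause a loss-of-function (LOF) of miR-9, and TGFB1 was added at 5 ng/ml for the last 4 h. The TGFB1 group had the same cytokine treatment without this antagomiR, and Ctrl had no TGFB1. AntagomiR probes were used at 60 nM and cells were harvested 24 h after transfection. By the study's text, cells without the miR-9 antagomiR received a control antagomiR. The treatment labels, WT for Ctrl and Tgfb treatment for TGFB1, do not name such a probe. With 1 library per group no difference below has a replicate check. Of the 10 fibroblast markers listed, 6 had a promoter peak in TGFB1+miR-9-LOF, 9 in TGFB1 and 9 in Ctrl. None was found in any library at the 5 epithelial and 4 endothelial markers, and the 4 immune markers had 1, at Cd14 in TGFB1 and Ctrl.

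H3K4me3 is deposited at the promoters of active genes, and the width of the marked domain differs between genes, with broad domains often found at highly transcribed genes. DEAD-box and DEAH-box proteins use ATP to unwind or remodel RNA, RNA-protein complexes and, for some, DNA, and are named after the residues of a conserved helicase motif. Most of them act in every cell, in splicing, mRNA export, ribosome assembly, translation and mRNA decay. DHX36 and DHX9 unwind G-quadruplexes, four-stranded structures of guanine-rich DNA or RNA, and DDX5 and DDX17 are partners of the Drosha complex that cuts primary microRNAs.

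The microRNA inhibited in TGFB1+miR-9-LOF is printed first because it defines that group. Its mature sequence in RefSeq (GRCm38.p6, the assembly also called mm10) is the same at Mir9-1, Mir9-2 and Mir9-3, at chr3:88215613-88215635, chr13:83738821-83738843 and chr7:79505279-79505301, all on the plus strand. Capitals mark the seed, bases 2 to 8.
mmu-miR-9-5p: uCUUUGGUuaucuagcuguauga

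Promoters of 3 members follow. Ddx5 is shown because its H3K4me3 peaks differed most in length between TGFB1+miR-9-LOF and TGFB1, Dhx36 because its peak in TGFB1+miR-9-LOF missed its start, and Ddx58 as an example of the members without a peak there. RefSeq promoters, 250 bases before to 50 after a start, were matched for 38 of the 43 members, with 48 entries. Those without an entry were Ddx6, Ddx11, Ddx23, Ddx39 and Dhx38. All sequences are on GRCm38.p6 and run 5′ to 3′ on the strand of the gene, here the minus strand. Ddx5 has 3 entries on chromosome 11 (a: chr11:106788445-106788744, b: chr11:106788858-106789157, c: chr11:106789136-106789435). In TGFB1+miR-9-LOF, 0 bases of any of them lay under a peak, whereas all 300 bases of each did in Ctrl, and 85, 300 and 300 bases of a, b and c did in TGFB1. Capitals mark G-quadruplex patterns in a and c, CCGGAAG on the opposite strand and CACGTG in b, and CCAAT on the opposite strand at the second capital run of c.
Ddx5 promoter a: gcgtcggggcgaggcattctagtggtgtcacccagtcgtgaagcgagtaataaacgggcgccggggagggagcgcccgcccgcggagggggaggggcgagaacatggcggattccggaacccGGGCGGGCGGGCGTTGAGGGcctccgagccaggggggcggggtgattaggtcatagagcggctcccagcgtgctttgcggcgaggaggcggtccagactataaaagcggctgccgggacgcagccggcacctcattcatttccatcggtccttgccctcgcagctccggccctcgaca
Ddx5 promoter b: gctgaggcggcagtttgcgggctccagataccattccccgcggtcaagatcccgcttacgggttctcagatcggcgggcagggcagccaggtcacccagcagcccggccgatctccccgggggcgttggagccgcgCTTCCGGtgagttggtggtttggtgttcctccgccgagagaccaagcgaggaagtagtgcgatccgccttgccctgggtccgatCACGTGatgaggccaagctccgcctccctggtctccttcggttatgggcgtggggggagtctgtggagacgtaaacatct
Ddx5 promoter c: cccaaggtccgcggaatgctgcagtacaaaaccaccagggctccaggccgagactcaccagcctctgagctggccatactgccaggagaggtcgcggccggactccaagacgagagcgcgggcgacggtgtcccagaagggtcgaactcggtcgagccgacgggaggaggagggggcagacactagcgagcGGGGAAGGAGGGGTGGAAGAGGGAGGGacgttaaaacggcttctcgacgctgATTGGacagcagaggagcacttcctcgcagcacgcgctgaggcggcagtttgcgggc

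The promoter of Dhx36, at chr3:62506939-62507238, likewise had 0 bases under a peak in TGFB1+miR-9-LOF, and 300 in TGFB1 and in Ctrl. Capitals mark CCGGAAG on either strand.
Dhx36 promoter: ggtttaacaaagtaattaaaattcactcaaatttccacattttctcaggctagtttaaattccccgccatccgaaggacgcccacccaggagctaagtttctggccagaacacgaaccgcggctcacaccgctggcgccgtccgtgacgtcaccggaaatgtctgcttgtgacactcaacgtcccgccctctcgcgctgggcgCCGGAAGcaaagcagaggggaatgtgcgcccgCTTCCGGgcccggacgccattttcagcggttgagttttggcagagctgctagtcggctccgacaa
Ddx58, at chr4:40239776-40240075, stands for the members whose region had no peak at all in TGFB1+miR-9-LOF, and it is also among the few members with a G-quadruplex pattern. Here 0 bases lay under a peak in TGFB1+miR-9-LOF, 300 in TGFB1 and 159 in Ctrl. Capitals mark the G-quadruplex pattern, which lies on the opposite strand.
Ddx58 promoter: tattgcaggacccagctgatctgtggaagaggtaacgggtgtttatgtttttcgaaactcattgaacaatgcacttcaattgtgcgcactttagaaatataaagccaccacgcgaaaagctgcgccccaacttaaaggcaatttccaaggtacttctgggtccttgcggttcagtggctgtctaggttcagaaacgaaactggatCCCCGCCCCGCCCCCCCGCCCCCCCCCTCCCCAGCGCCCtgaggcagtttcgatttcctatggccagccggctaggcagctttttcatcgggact

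Among all entries of members, 16 of 48 were wholly under a peak in TGFB1+miR-9-LOF, 37 in TGFB1 and 35 in Ctrl. Some entries lie outside the peak regions of their gene, such as chr15:79532868-79533167 of Ddx17. They count in the shares of cover, motifs and GC, and the entries of all genes were taken in the same way. Over the 9238 promoter entries of all genes with a promoter peak, the shares were 26.7% in TGFB1+miR-9-LOF, 70.1% in TGFB1 and 63.7% in Ctrl. The members' shares were 33.3% in TGFB1+miR-9-LOF (21.7 to 47.5, a 95% Wilson interval as are those that follow shares below), 77.1% in TGFB1 (63.5 to 86.7) and 72.9% in Ctrl (59.0 to 83.4).

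Motifs were searched on both strands of these 300-base windows, and a match describes letters only. The G-quadruplex pattern, 4 runs of GGG or longer with gaps of 1 to 7 bases, occurred in 5 of 48 member entries (10.4%, 4.53 to 22.2), from Ddx5, Ddx31, Ddx58 and Dhx32. It occurred in 28.4% of the entries of all genes with a promoter peak and in 18.6% of all 32851 RefSeq promoters. CCGGAAG, the letters of an ETS-type element, occurred in 18 of 48 member entries (37.5%, 25.2 to 51.6), against 19.5% of the entries of genes with a promoter peak and 8.86% of all promoters. CCAAT was found in 39.6% of member entries, against 38.2% and 37.4%, and CACGTG, which reads the same on both strands, in 10.4%, against 10.4% and 7.15%. GCGCATGC was found in 8.33% of member entries, against 5.88% and 2.71%, AAGATGGCG in 2.08%, against 3.28% and 1.40%, and GTCTAGAC in 0 of 48, against 0.184% and 0.213%. These shares were not tested, and entries of 1 gene overlap in part, as promoters b and c of Ddx5 do. The median GC content was 59.5% in member entries and 61.7% in those of all genes with a promoter peak.

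Most member genes kept a listed promoter peak in TGFB1+miR-9-LOF, and every member that kept one was covered over a shorter length than in TGFB1. Of all 8915 genes with a TGFB1 peak, 43.2% had none in TGFB1+miR-9-LOF. Shortening was general, with 4985 of the 5063 genes with a peak in both libraries shorter in TGFB1+miR-9-LOF. Keeping a peak depended on the score limit: with only peaks scored 60 or more, 13 members had one in TGFB1+miR-9-LOF, and 27 of the 40 with one in TGFB1 (67.5%, 52.0 to 79.9) had none there, against 86% of all genes by the same limit. The covered length of a gene, the number of bp of its promoter regions that lie under the peaks of a library, could be given for 34 of the 43 members in TGFB1+miR-9-LOF, all 43 in TGFB1 and 42 in Ctrl. Its median over the members with a peak was 1477 bp in TGFB1+miR-9-LOF (95% interval 1271 to 1631), 1826 bp in TGFB1 (1761 to 1971) and 1807 bp in Ctrl (1685 to 1911). Over all genes with a promoter peak it was 1351 bp in TGFB1+miR-9-LOF, 1771 bp in TGFB1 and 1711 bp in Ctrl. Broad promoters, of 2.7 kb or more, numbered 1 among the members in TGFB1+miR-9-LOF, 5 in TGFB1 and 4 in Ctrl. Those of medium length, from 2 kb up to 2.7 kb, numbered 0 in TGFB1+miR-9-LOF, 7 in TGFB1 and 9 in Ctrl. Among the members 2.94% were broad in TGFB1+miR-9-LOF, 11.6% in TGFB1 and 9.52% in Ctrl, and all genes had 0.355% broad in TGFB1+miR-9-LOF, 3.61% in TGFB1 and 2.85% in Ctrl. Medium lengths made up 0% of members in TGFB1+miR-9-LOF, 16.3% in TGFB1 and 21.4% in Ctrl, and among all genes 3.9% in TGFB1+miR-9-LOF, 22.5% in TGFB1 and 18.5% in Ctrl. These classes use lengths summed over the peaks of a gene, and by its longest single peak 0 members were broad in TGFB1+miR-9-LOF, 3 in TGFB1 and 3 in Ctrl, and of all genes 0.0789% were in TGFB1+miR-9-LOF, 2.49% in TGFB1 and 1.88% in Ctrl. The intervals cover the choice of genes only, and genes are not replicates. The depth behind each peak is unknown, since the lists held no read counts.

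**Figure D1:**
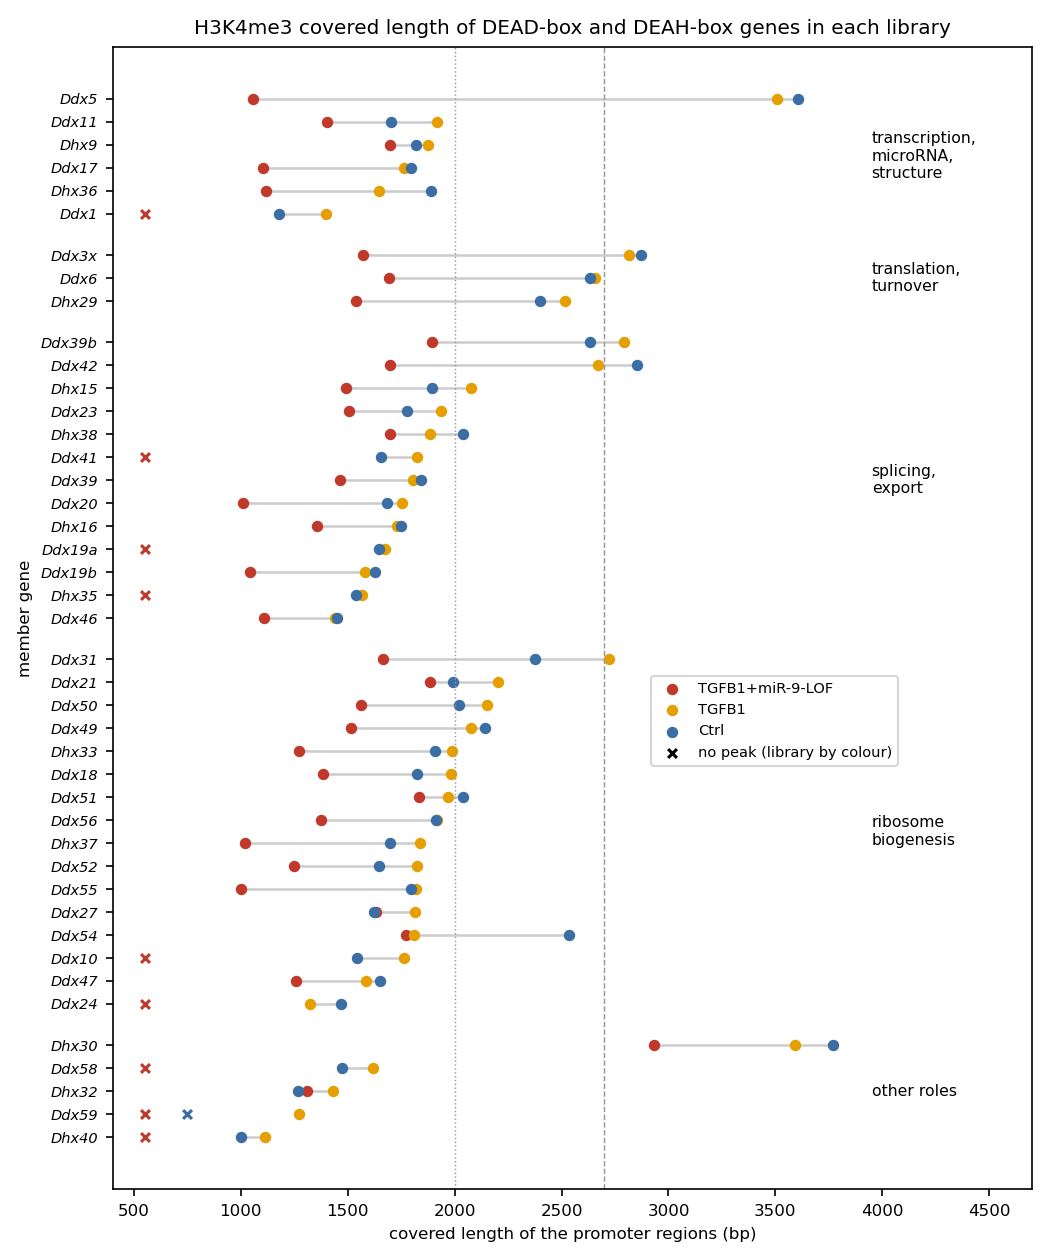
Covered length in bp (x axis) of each of the 43 member genes (y axis, grouped by role) in TGFB1+miR-9-LOF (red), TGFB1 (orange) and Ctrl (blue). Each point is 1 library, crosses at the left mark a library without a peak, and the dotted and dashed lines stand at 2 kb and 2.7 kb. The red point lies left of the orange point in all 34 members with both, and Ddx5 has the longest grey line, from 1057 to 3605 bp.

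The comparison of TGFB1+miR-9-LOF with TGFB1 asked what the loss of miR-9 changed within the TGFB1 response. All 34 members with a peak in both libraries were shorter in TGFB1+miR-9-LOF, with a median log2 ratio of -0.48 (95% interval -0.64 to -0.35, a fold of 0.72), and their ratios ran from -1.73 at Ddx5 to -0.03 at Ddx54. The median over all 5063 genes with a peak in both was -0.49, and 4985 of them were shorter. By a log2 ratio of 0.32 or more in size, 25 of the 34 members were shorter, against a background of 73.4% of all genes, and 0 were longer, against a background of 0.0198%. The shortening of the members was thus close to that of all genes. The TGFB1+miR-9-LOF list held 4959 peaks, against 9116 in TGFB1 and 8727 in Ctrl, and with 1 library each the treatment cannot be told apart from the depth or enrichment of the library, nor fewer cells with the mark from less of it per cell.

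No peak was left in TGFB1+miR-9-LOF at 9 of the 43 members with a peak in TGFB1 (20.9%, Wilson interval 11.4 to 35.2), and the background over all 8915 genes with a TGFB1 peak was 43.2%. These 9 genes were Ddx1, Ddx10, Ddx19a, Ddx24, Ddx41, Ddx58, Ddx59, Dhx35 and Dhx40. In TGFB1 they had a median covered length of 1568 bp and a median peak score of 89.0, against 1916 bp and 128.0 in the 34 members that kept a peak. Whether the deposited peak score came from MACS3, the peak caller, or from HOMER, a peak annotation tool, is not stated in the sources, and it was not taken as scaled between lists. It moved with the loss in all genes too, and its part in the loss was not tested. Where the TGFB1 score was high (109 to 669), 22 of 24 members and 89.4% of all genes kept a peak. At middle scores (76 to 108), 11 of 14 members (78.6%, 52.4 to 92.4) and 60.9% of all genes did, and at low scores (25 to 75) 1 of 5 members and 21% of all genes did. The median TGFB1 score was 114.0 over the 43 members and 91.0 over all genes.

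**Figure D2:**
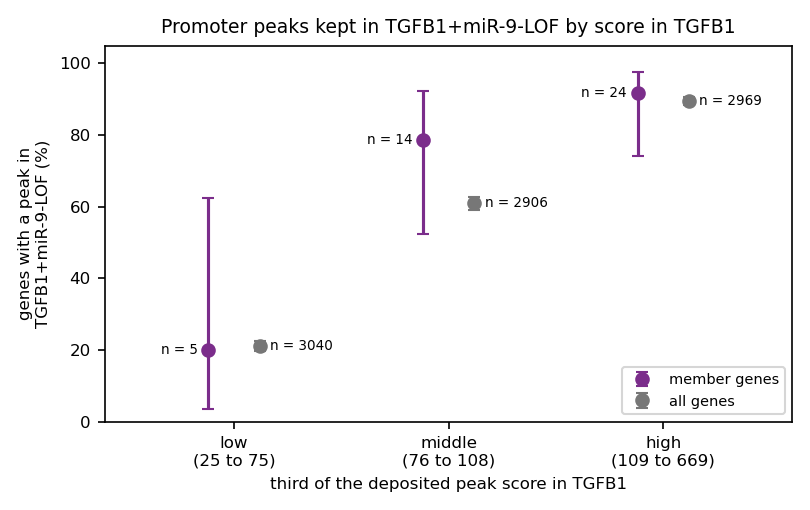
Share of genes with a TGFB1 promoter peak that also had one in TGFB1+miR-9-LOF (y axis, %), by class of the deposited peak score in TGFB1 (x axis), for member genes (purple) and all genes (grey). Bars are 95% Wilson intervals, which cover counting error only, and the share goes up with the score in both, to 91.7% of 24 members and 89.4% of all genes in the high class.

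The comparison of TGFB1 with Ctrl asked what 4 h of the cytokine changed. Member promoters differed little in length, with 26 longer and 16 shorter in TGFB1 among the 42 with a peak in both. Of all 8436 genes with a peak in both, 5429 were longer and 2990 shorter, so the lean of the members towards longer was close to that of all genes. The members' median log2 ratio was 0.04 (-0.02 to 0.11), against 0.06 over the 8436 genes. By the same threshold, 0 of 42 members were longer, against a background of 10.6%, and 1, Ddx54, was shorter, against a background of 2.98%. By the longest single peak Ddx5 was shorter too, which made 2 of 42, against 3.08% of all genes. The gene with a peak in TGFB1 and none in Ctrl was Ddx59, 1 of 43, against a background of 5.37%, and 0 of 42 members had a peak in Ctrl and none in TGFB1, against a background of 1.9%. For TGFB1+miR-9-LOF over Ctrl the median was -0.44 (-0.64 to -0.36) over 34 members and -0.43 over 5049 genes. Of these members 26 were shorter by that threshold, with a background of 65.5%, and 8 of the 42 members with a Ctrl peak had none in TGFB1+miR-9-LOF, with a background of 41.3%. The comparisons share libraries, so they are not independent of each other.

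**Figure D3:**
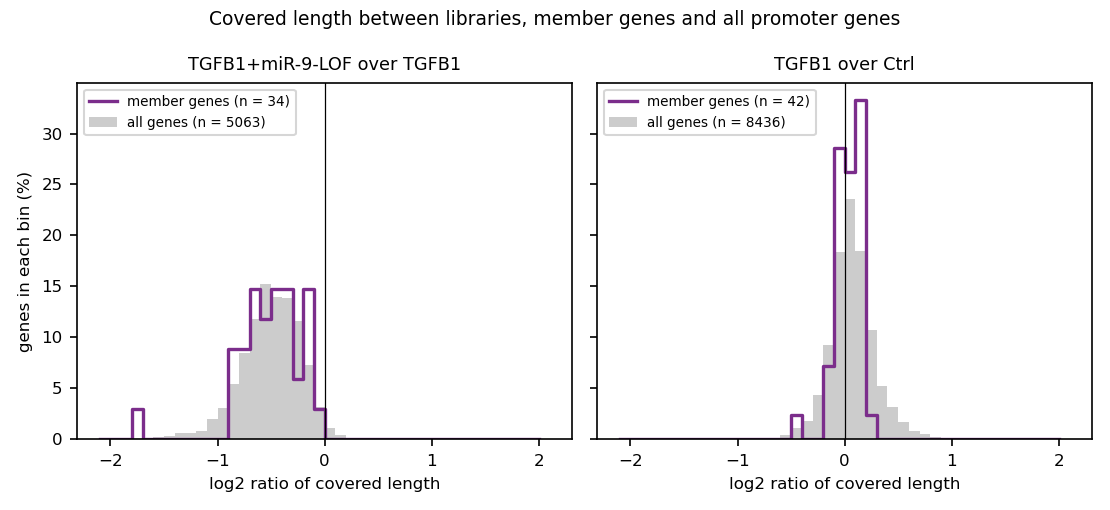
Distribution of the log2 ratio of covered length (x axis) for member genes (purple line) and all genes with a promoter peak in both libraries (grey bars), as a percentage of genes per bin (y axis), for TGFB1+miR-9-LOF over TGFB1 (left) and TGFB1 over Ctrl (right). The 34 members on the left lie below 0 as do most of the 5063 genes, with Ddx5 apart at -1.73 (-0.89 by its longest single peak), and the 42 members on the right lie around 0 with Ddx54 at -0.49.

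Genes of transcription, microRNA processing and nucleic acid structure held the member with the largest change in TGFB1+miR-9-LOF over TGFB1. Ddx5, an RNA helicase and transcriptional coregulator, had a covered length of 1057 bp in TGFB1+miR-9-LOF, 3506 bp in TGFB1 and 3605 bp in Ctrl. It was broad in TGFB1 and Ctrl and narrow in TGFB1+miR-9-LOF, with a log2 ratio of -1.73 against TGFB1 and -1.77 against Ctrl. Among the 5063 genes with a peak in both TGFB1+miR-9-LOF and TGFB1 it ranked 10 from the most shortened, and 367 by the longest single peak. Its region, chr11:106786373-106790202, also holds the start of Cep95, so the values of both genes come from the same peaks. In TGFB1+miR-9-LOF the only peak lay at chr11:106787079-106788135, in an intron. TGFB1 had peaks of 1963 and 1543 bp with a gap at the start of Ddx5 annotated by GENCODE, and Ctrl had 1 peak over the whole stretch. The 1543 bp peak in TGFB1 covered the RefSeq starts of promoters b and c. Taking the longest peak of each library instead, Ddx5 had 1057 bp in TGFB1+miR-9-LOF, 1963 bp in TGFB1 and 3605 bp in Ctrl, and the log2 ratio of TGFB1+miR-9-LOF over TGFB1 was -0.89 and that of TGFB1 over Ctrl was -0.88, where the summed length gave -0.04. By either measure it was the most shortened member in TGFB1+miR-9-LOF over TGFB1, by the longest peak with Ddx55 (-0.86) and Dhx37 (-0.85) close behind.

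Ddx17, the close relative of Ddx5, had 1103 bp in TGFB1+miR-9-LOF, 1763 bp in TGFB1 and 1796 bp in Ctrl, a log2 ratio of -0.68 against TGFB1. Dhx36, which unwinds G-quadruplexes, had 1116 bp in TGFB1+miR-9-LOF, 1647 bp in TGFB1 and 1891 bp in Ctrl, and was shorter in TGFB1 than in Ctrl by 244 bp (log2 ratio -0.20). Dhx9, which resolves RNA and DNA structures and acts as a transcriptional cofactor, was among the 5 least shortened members, with 1699 bp in TGFB1+miR-9-LOF, 1875 bp in TGFB1 and 1817 bp in Ctrl and a log2 ratio of -0.14 against TGFB1. The kept members of this group thus spanned most of the range seen over all members. Ddx11, a DNA helicase of sister chromatid cohesion, had 1403 bp in TGFB1+miR-9-LOF, 1916 bp in TGFB1 and 1704 bp in Ctrl. Ddx1, a helicase of the tRNA ligase complex, lacked a peak in TGFB1+miR-9-LOF and had 1400 bp in TGFB1 and 1180 bp in Ctrl, a log2 ratio of 0.25 for TGFB1 over Ctrl that was the highest among the members.

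The position of the peak relative to the TSS of the gene was compared too, and the members' shares did not stand clear of those of all genes. In TGFB1+miR-9-LOF, 5 of 34 members (14.7%, 6.45 to 30.1) had a peak in their region that covered no start annotated by GENCODE, and the background over 4867 genes was 20.3%. These were Ddx5, whose peak began 397 bp downstream of its start, Dhx36 at 275 bp, Ddx17 at 108 bp, Ddx20 at 82 bp and Ddx18 at 35 bp. In TGFB1, 2 of 43 members had no GENCODE start under a peak, Ddx5 by 128 bp and Dhx40 by 71 bp. The background was 2.01%, which lies within the members' interval (4.65%, 1.28 to 15.5). In Ctrl the count was 0 of 42 members, and the background was 4.56%. By RefSeq, the starts of Ddx5 promoters b and c and the start of Dhx40 did lie under a TGFB1 peak. Where a region held 1 peak in both libraries, the upstream edge of members had moved inward by a median of 291 bp in TGFB1+miR-9-LOF over TGFB1 (95% interval 198 to 374) and the downstream edge by 258 bp (63 to 295), in 32 members. Over 4923 genes the medians were 260 and 238 bp. More was lost at the upstream edge in 22 of the 32 members and in 2580 of the 4923 genes. At Dhx36 the upstream edge moved inward by 661 bp while the downstream edge lay 130 bp further out. At Ddx3x it was the downstream edge that moved most, by 955 bp, against 291 bp upstream.

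**Figure D4:**
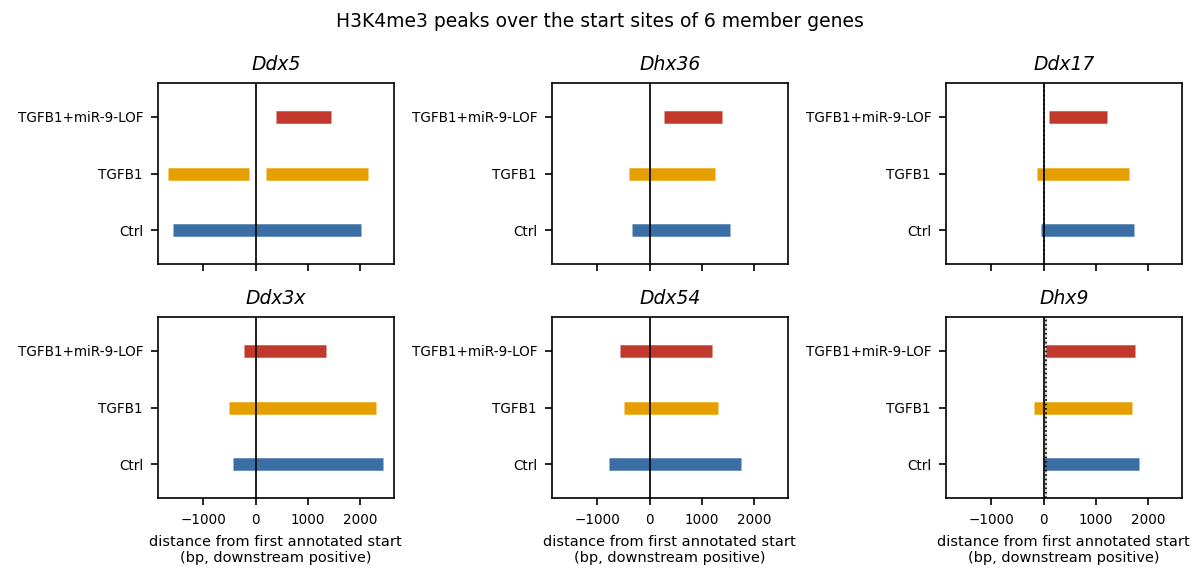
Peaks of 6 member genes (bars) in TGFB1+miR-9-LOF (top, red), TGFB1 (middle, orange) and Ctrl (bottom, blue). The x axis is the distance in bp from the first start annotated by GENCODE (solid line), with a dotted line at a further GENCODE start. The red bars of Ddx5, Dhx36 and Ddx17 begin 397, 275 and 108 bp downstream of the nearest start, whereas those of Ddx3x and Ddx54 cover their start. The red bar of Dhx9 begins 49 bp downstream of its first start and covers only the further start, at 52 bp.

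The genes of translation and mRNA turnover had the longest promoters of any group with more than 1 member, with a median of 1569 bp in TGFB1+miR-9-LOF, 2654 bp in TGFB1 and 2634 bp in Ctrl. Ddx3x, an X-linked helicase of translation initiation, had 1569 bp in TGFB1+miR-9-LOF, 2815 bp in TGFB1 and 2873 bp in Ctrl, a log2 ratio of -0.84 against TGFB1. Ddx6, a helicase of P bodies that takes part in translational repression and decay of mRNA, had 1693 bp in TGFB1+miR-9-LOF, 2654 bp in TGFB1 and 2634 bp in Ctrl (-0.65). Dhx29, which helps the ribosome scan structured leader sequences, had 1537 bp in TGFB1+miR-9-LOF, 2515 bp in TGFB1 and 2400 bp in Ctrl (-0.71). All 3 were shorter in TGFB1+miR-9-LOF by more than the median gene, and differed between TGFB1 and Ctrl by log2 ratios of only -0.03 to 0.07. Dhx29 shares its region with Mtrex, an RNA helicase of the nuclear exosome, under whose name the Ctrl peak was listed.

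Of the 13 genes of splicing and mRNA export, 10 kept a peak in TGFB1+miR-9-LOF, all shorter than in TGFB1, with a median log2 ratio of -0.43. Ddx39b, which loads export factors on mRNA, was broad in TGFB1 and medium in Ctrl, with 1895 bp in TGFB1+miR-9-LOF, 2793 bp in TGFB1 and 2635 bp in Ctrl. Ddx42, a helicase associated with the U2 snRNP, had 1699 bp in TGFB1+miR-9-LOF, 2671 bp in TGFB1 and 2855 bp in Ctrl, and shares its region with Ccdc47. Ddx20, also called Gemin3, a subunit of the SMN complex that assembles snRNPs, had 1010 bp in TGFB1+miR-9-LOF, 1754 bp in TGFB1 and 1685 bp in Ctrl, and with a log2 ratio of -0.80 against TGFB1 was the most shortened of the group. The least shortened was Dhx38, a helicase of the second catalytic step of splicing, with 1698 bp in TGFB1+miR-9-LOF, 1885 bp in TGFB1 and 2038 bp in Ctrl (-0.15). Ddx41, Ddx19a and Dhx35 lacked a peak in TGFB1+miR-9-LOF. Ddx41, a spliceosome component also known as a DNA sensor, had 1826 bp in TGFB1 and 1656 bp in Ctrl and was the longest member of those without a peak in TGFB1+miR-9-LOF. Ddx19a, an mRNA export factor of the nuclear pore, had 1674 bp in TGFB1 and 1647 bp in Ctrl, whereas its paralog Ddx19b, on the same chromosome, kept 1042 bp in TGFB1+miR-9-LOF, against 1580 bp in TGFB1 and 1628 bp in Ctrl. Dhx35 had 1568 bp in TGFB1 and 1537 bp in Ctrl.
The other members of the splicing and mRNA export group, Dhx15, Ddx23, Dhx16, Ddx46 and Ddx39, were of narrow to medium length. Their log2 ratios against TGFB1 were -0.48, -0.36, -0.35, -0.38 and -0.30. Dhx15 was among the 8 members that gained most in TGFB1 over Ctrl, with 1492 bp in TGFB1+miR-9-LOF, 2075 bp in TGFB1 and 1892 bp in Ctrl.

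The 16 genes of ribosome biogenesis included both the most and some of the least shortened members after Ddx5, with 14 kept in TGFB1+miR-9-LOF and a median log2 ratio of -0.47. Ddx55 had 1000 bp in TGFB1+miR-9-LOF, the length of the shortest peaks in the lists, against 1820 bp in TGFB1 and 1797 bp in Ctrl (log2 ratio -0.86 against TGFB1). Dhx37, a helicase of small subunit assembly, had 1018 bp in TGFB1+miR-9-LOF, 1838 bp in TGFB1 and 1699 bp in Ctrl (-0.85). Ddx31 had 1666 bp in TGFB1+miR-9-LOF, 2721 bp in TGFB1 and 2375 bp in Ctrl (-0.71), and its 346 bp in TGFB1 over Ctrl was the largest gain in bp of any member. All of the 1055 bp by which its peak was shorter in TGFB1+miR-9-LOF than in TGFB1 lay upstream, towards the start of Gtf3c4, the gene that gave the TGFB1 peak its name. The folds in this group ran from 0.55 at Ddx55 to 0.98 at Ddx54.
By summed length Ddx54 was the member that differed most between TGFB1 and Ctrl, whereas by the longest single peak Ddx5 was. Ddx54 had 1774 bp in TGFB1+miR-9-LOF, 1808 bp in TGFB1 and 2534 bp in Ctrl, log2 ratios of -0.49 for TGFB1 over Ctrl and -0.03 for TGFB1+miR-9-LOF over TGFB1, and a region shared with Rita1. The edges of its peak in TGFB1 lay 280 bp further in upstream and 446 bp further in downstream than those in Ctrl.
Ddx51, with 1835 bp in TGFB1+miR-9-LOF, 1971 bp in TGFB1 and 2041 bp in Ctrl, and Ddx27, with 1631 bp in TGFB1+miR-9-LOF, 1814 bp in TGFB1 and 1624 bp in Ctrl, also changed little in TGFB1+miR-9-LOF over TGFB1, with log2 ratios of -0.10 and -0.15, and Ddx27 had the highest TGFB1 score of the members (199). Ddx21, a nucleolar helicase that couples transcription by RNA polymerases with rRNA processing, had 1886 bp in TGFB1+miR-9-LOF, 2203 bp in TGFB1 and 1994 bp in Ctrl (-0.22). Ddx10 and Ddx24 lacked a peak in TGFB1+miR-9-LOF. Ddx10 had 1761 bp in TGFB1 and 1545 bp in Ctrl with scores of 144 and 142, the highest TGFB1 score among the 9 members without a peak in TGFB1+miR-9-LOF, and Ddx24 had 1324 bp in TGFB1 and 1467 bp in Ctrl with scores of 70 and 79. The remaining members, Ddx18, Ddx47, Ddx49, Ddx50, Ddx52, Ddx56 and Dhx33, had between 1249 and 1560 bp in TGFB1+miR-9-LOF, between 1585 and 2151 bp in TGFB1 and between 1647 and 2140 bp in Ctrl. Ddx49 had the next highest TGFB1 score (197) and shares its region with Cope. Ddx52 was among the 8 members that gained most in TGFB1 over Ctrl, with 1249 bp in TGFB1+miR-9-LOF, 1822 bp in TGFB1 and 1647 bp in Ctrl.

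Dhx30, a helicase of mitochondrial ribosome assembly, was the only member with 2 promoter regions and the only broad one in TGFB1+miR-9-LOF. Summed over both, it had 2930 bp in TGFB1+miR-9-LOF, 3593 bp in TGFB1 and 3769 bp in Ctrl. The longer peak alone had 1646 bp in TGFB1+miR-9-LOF, 2055 bp in TGFB1 and 2104 bp in Ctrl, so that by a single peak Dhx30 was narrow in TGFB1+miR-9-LOF and medium in the others. Ddx58, which encodes the cytosolic RNA sensor RIG-I, lacked a peak in TGFB1+miR-9-LOF and had 1616 bp in TGFB1 and 1472 bp in Ctrl. Dhx32 had 1309 bp in TGFB1+miR-9-LOF, 1429 bp in TGFB1 and 1267 bp in Ctrl, and was with Ddx27 longer in TGFB1+miR-9-LOF than in Ctrl, by 42 and 7 bp. Ddx59 had a peak in TGFB1 alone, of 1274 bp with the lowest score of any member there (43). Dhx40 had 1111 bp in TGFB1 and 1000 bp in Ctrl, with scores of 55 and 46, and no peak in TGFB1+miR-9-LOF.

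Promoter regions that held the start of another protein-coding gene were seen at 9 of the 43 members (20.9%, 11.4 to 35.2) and at 17.2% of all genes. These were Ddx5, Ddx31, Ddx42, Ddx49, Ddx51, Ddx54, Dhx29, Dhx32 and Dhx38. All 9 kept a peak in TGFB1+miR-9-LOF, whereas 9 of the other 34 members had none. Among all genes with a TGFB1 peak, 27.2% of those in shared regions and 46.6% of those in other regions had none, and the shared regions were longer in TGFB1, with medians of 2007 and 1734 bp. In such regions the mark cannot be divided between the genes.

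A list drawn up for other RNA helicase genes, which the name rule does not take, gave values of the same kind. Of 22 names listed, 12 had a promoter peak in TGFB1+miR-9-LOF, 15 in TGFB1 and 15 in Ctrl. All 12 were shorter than in TGFB1, with a median log2 ratio of -0.69. Of all 5063 genes with a peak in both libraries, 4985 were shorter, and the median was -0.49. Among all genes with a TGFB1 peak, 43.2% had none in TGFB1+miR-9-LOF. The counts and median of the list include Nol8, which is not a helicase, and Mtrex, whose values are those of the region of member Dhx29. Mtrex was also listed under its former name, Skiv2l2. Eif4a1, the founding DEAD-box protein of translation initiation, had 1304 bp in TGFB1+miR-9-LOF, 2491 bp in TGFB1 and 2444 bp in Ctrl (log2 ratio -0.93 against TGFB1). Eif4a3, of the exon junction complex, had 1635 bp in TGFB1+miR-9-LOF, 2026 bp in TGFB1 and 1971 bp in Ctrl (-0.31). Dicer1, the helicase-containing nuclease that cuts pre-microRNAs, lacked a peak in TGFB1+miR-9-LOF and had 1446 bp in TGFB1 and 1652 bp in Ctrl. The listed genes were described only, and their difference from the members was not tested.

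RefSeq listed 53 protein-coding genes with a Ddx or Dhx name, and 10 had no promoter peak under their name in any library. They were Ddx3y, Ddx4, Ddx25, Ddx28, Ddx43, Ddx60, Dhx8, Dhx34, Dhx57 and Dhx58. Ddx4 is a germ cell helicase and Ddx25 and Ddx43 are known mainly from testis, whereas Ddx60 and Dhx58 act in the interferon response. Dhx8, a splicing helicase, and Dhx34 belong to neither set, and no peak of any name lay over their annotated starts in any library. The lists held 0 peaks on chromosome Y, where Ddx3y lies.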

How the data were processed

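H3K4me3 ChIP-seq of 3 MLg libraries, 1 per group, was analysed from deposited peak lists. Tools in the submitters' notes are HOMER and bedtools, MACS3 for peaks, deepTools (3.5.1), Picard (1.119), and Bowtie2 and Trimmomatic for reads, on mm10. The study's methods give broad H3K4me3 peaks called by MACS3 where they describe CUT&Tag, another profiling assay. A figure legend of the study calls the assay used here CUT&Tag, whereas its text and the labels say ChIP-seq. The sources used here name no input control. The deposited peak score is the authors' value within a list, and it was used only to class and filter peaks. No list held read counts, so depth is unknown.

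Peaks of the 3 lists that overlapped by at least 1 bp were merged into regions with Python (pandas, numpy and SciPy). A gene's covered length was the sum over the regions that held a peak of its name within 2000 bp of a TSS, whatever names the other peaks of a region carried. Start sites came from GENCODE M21 and promoter sequences from RefSeq (GRCm38.p6). With 1 library per group no p-value was computed. Wilson and order-statistic intervals are at 95%. The steps were tested on simulated lists in which Ctrl peaks of some genes were widened or removed. Shortening as in TGFB1+miR-9-LOF was not simulated. Members, role groups and lists were chosen with earlier results of these data known. Named genes were those with the largest and smallest changes, without a peak, broad, or with extreme scores, and 8 genes always included (Ddx5, Ddx17, Dhx9, Dhx36, Ddx3x, Ddx6, Ddx21 and Ddx39b). Alternatives were a score of 60 or more, the widest peak, own-name peaks only, 1000 bp, a share of 0.5 of the shorter peak covered and, chosen after seeing the data, assignment by annotated start within 500 bp. Protein sequences were not used here.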

Additional observations from a re-analysis of the deposited data

How the results depend on the processing

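The median log2 ratios of the 3 comparisons stayed within their intervals under every alternative run for them. With a peak score of 60 or more, 13 members had a peak in TGFB1+miR-9-LOF, 27 had one in TGFB1 that was lost in TGFB1+miR-9-LOF, and 3 had one in only TGFB1 or only Ctrl, against 34, 9 and 1 in the report. By the same limit 86% of all genes lost their TGFB1 peak in TGFB1+miR-9-LOF, against 67.5% of members, and 19.9% had a peak in only TGFB1 or only Ctrl, against 7.5% of members. Scores are not scaled between lists, so this limit need not be equally strict in each. With peaks of the member's own name only, 4 members (9.3%) had a peak in only TGFB1 or only Ctrl, against 12.5% of all genes, and with genes assigned by their annotated start, chosen after seeing the data, 2 did (all genes not run). The covered lengths of Ddx5 and Dhx30 depend on summing their peaks, as given with them. No paired analysis was possible because each group had 1 library. No peak under 1000 bp was listed, which bounds how far a kept region could shorten.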

Other observations

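The starts of Ddx28 and Dhx57, which had no promoter peak under their own name, lay under peaks listed for neighbouring genes. The peak over Ddx28, a mitochondrial DEAD-box protein, was named Dus2 and had 1581 bp in TGFB1+miR-9-LOF, 1643 bp in TGFB1 and 1832 bp in Ctrl. The peak over Dhx57 was named Morn2 and had 1680 bp in TGFB1+miR-9-LOF, 1712 bp in TGFB1 and 1787 bp in Ctrl. Both were kept in all 3 libraries, were longest in Ctrl and differed little in length between TGFB1+miR-9-LOF and TGFB1. Their scores, which are not scaled between lists, were lowest in TGFB1+miR-9-LOF. The median score over all genes was lowest there too, at 46.0, against 91.0 in TGFB1 and 81.0 in Ctrl. The Dus2 peak scored 54 in TGFB1+miR-9-LOF, 206 in TGFB1 and 179 in Ctrl. For the Morn2 peak the scores were 87 in TGFB1+miR-9-LOF, 168 in TGFB1 and 139 in Ctrl.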
